A study of Mus musculus with 22 samples.

Results

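CD8+ T cells labelled KO were compared after 48 h of stimulation with the naive cells of the same mice, in 4 of the 22 libraries of the series: 2 naive and 2 at 48 h. The members were chosen by the labels of line (Tcaim KO Cd4Cre), of genotype (hocre) and of naive or activated state, with no measured value. The series measured RNA by bulk sequencing in mouse CD8+ T cells of mice labelled KO, KI and wt. Both mice labelled KO were female. Mouse 2630 belonged to experiment 1 (Exp1) and mouse 2855 to experiment 5 (Exp5), and each gave 1 naive and 1 48 h library and none at 24 h. Libraries labelled KI came from 3 mice of line Tcaim KI Cd4Cre with genotype hocre, and libraries labelled wt from 3 mice of that line with genotype wtcre. The wt and KI mice of experiments 1 and 3 were male and those of experiment 5 female, and each gave libraries naive, at 24 h and at 48 h. Every line carries Cd4Cre, a recombinase driven from the Cd4 gene, which developing T cells switch on before they become CD4 or CD8 cells. No wt mice of the KO line were analysed here, so genotype cannot be told apart from line in comparisons with wt or KI. Per the labels, naive cells were purified from lymph nodes and spleen by depleting unwanted cells on magnets, and were sequenced as isolated or after culture on plates coated with 2 µg/ml anti-CD3 with 1 µg/ml soluble anti-CD28. These antibodies engage the T cell receptor complex and the costimulatory receptor CD28.

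A naive CD8 T cell is small, does not divide, and recirculates between blood and lymphoid organs under transcription factors such as KLF2. Signals through its receptor and CD28 drive it to grow, to switch to glycolysis and biosynthesis, to enter the cell cycle, and to make granzymes and cytokines, while the genes of the naive state are switched off. The product of Tcaim is a mitochondrial protein that the series title links to contacts between mitochondria and the endoplasmic reticulum and to anabolism and effector differentiation.

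Levels are given as CPM, counts scaled to library size with TMM factors, always for Exp1 first and Exp5 second. Total counts per library were 71924409 to 89356908 in the libraries labelled KO and 62551905 to 93489115 in all 22. A gene was called at a Benjamini-Hochberg adjusted p under 0.05 in the edgeR quasi-likelihood test. Positions are those of GRCm38.

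Tcaim (ENSMUSG00000046603, chromosome 9, 122805539 to 122836334) had 14.9 and 19.6 CPM before stimulation and 11.7 and 5.99 CPM at 48 h. The wt libraries ran from 14.6 to 15.2 CPM naive and from 9.03 to 12 CPM at 48 h, and the KI libraries from 138 to 145 and from 229 to 260.0 CPM. Only the KO Exp5 library at 48 h lay below the wt libraries of its time. The gene was not lost from the libraries labelled KO at the level of gene counts, and "labelled KO" is used here for that reason. From naive to 48 h it had a log2 fold change by edgeR of -0.97 (SE 0.23, adjusted p 0.00215), with a change of -0.34 in Exp1 and -1.63 in Exp5 on the log2(CPM + 0.5) scale. Leaving out the KO mouse of Exp5, it was -0.35 (adjusted p 0.212), and without that of Exp1 -1.70.

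Both pairs of libraries were checked against markers of CD8 T cells and of other cells. Cd8a, a chain of the CD8 coreceptor, had 853 and 1504 CPM before stimulation and 697 and 727 CPM at 48 h, and its partner chain Cd8b1 had 739.6 and 1256 CPM before stimulation and 424 and 461 CPM at 48 h. The CD8 T cell list holds Cd8a and Cd8b1 beside genes of the T cell receptor complex, which CD4 T cells also express. All 7 of its markers were detected in every library labelled KO. Their summed levels were 3679 and 5588 CPM in the naive libraries, and 3227 and 2764 CPM at 48 h. The naive Exp1 library stood below the wt and KI naive libraries, which ran from 4369 to 5454 CPM. That library also held more RNA of other lymphocytes. Cd4, the coreceptor of helper T cells, was at 184 CPM naive and 152 CPM at 48 h in Exp1, and at 16.5 and 15.6 CPM in Exp5. The 18 wt and KI libraries ran from 8.49 to 54.8 CPM for Cd4. Zbtb7b, which specifies the CD4 lineage, had 46.8 and 36.2 CPM in Exp1 against 3.86 and 4.06 CPM in Exp5. Cd79a, a chain of the B cell receptor complex, had 225 and 15.9 CPM in Exp1 against 22 and 3.29 CPM in Exp5. Calls were lost without the KO mouse of Exp5 for Cd8a (-0.29). The values in brackets are the log2 fold changes then found.

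In the naive Exp1 library, all 6 CD4 T cell markers, all 10 B cell markers, 7 of 8 NK and innate-like markers, 8 of 13 macrophage, monocyte and dendritic cell markers and 7 of 9 neutrophil and mast cell markers lay above the 6 wt and KI naive libraries. The naive Exp5 library lay below those 6 in all 10 B cell markers and in 7 of 13 macrophage, monocyte and dendritic cell markers. Summed B cell markers were 3449 CPM naive and 881 CPM at 48 h in Exp1 and 828 and 536 CPM in Exp5, against 1052 to 1622 CPM in wt and KI naive libraries. Summed NK and innate-like markers were 202 and 22.2 CPM in Exp1 and 67.1 and 7.01 CPM in Exp5. At 48 h Siglech and Clec9a of the dendritic cells, and Pf4 and Ppbp of platelets, were at 0 counts in both libraries. So were Ly6g, Elane and Mcpt4 of the neutrophils and mast cells. Ly6g, Elane, Mcpt4, Pf4 and Ppbp had at most 0.877 CPM when naive. In the macrophage, monocyte and dendritic cell list 10 of 13 were called lower. Its Csf1r was still at 10.8 and 13.8 CPM at 48 h, Cst3 at 35.3 and 34.5 CPM and Cd68 at 18.8 and 9.26 CPM. Salivary gland markers summed to 61.7 and 34.0 CPM naive, above the 12.1 to 18.3 CPM of the wt and KI naive libraries, and to 8.25 and 4.77 CPM at 48 h. Most of the naive sums came from Bpifa2 (41.1 and 15.3 CPM) and Amy1 (15.6 and 9.43 CPM). Of these 16 markers, 8 were at 0 counts in the naive Exp1 library and 7 in the naive Exp5 library. The naive Exp5 library lay above the wt and KI naive libraries in 7 of the 16 and the naive Exp1 library in 6. At 48 h the Exp1 library also stood apart as a whole, at 127 on the second principal component of all 22 libraries, where the next highest, wt 48 h of experiment 3, was at 61.3. Since each mouse stands apart in some of these markers, results are given with both mice side by side.

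**Figure D1:**
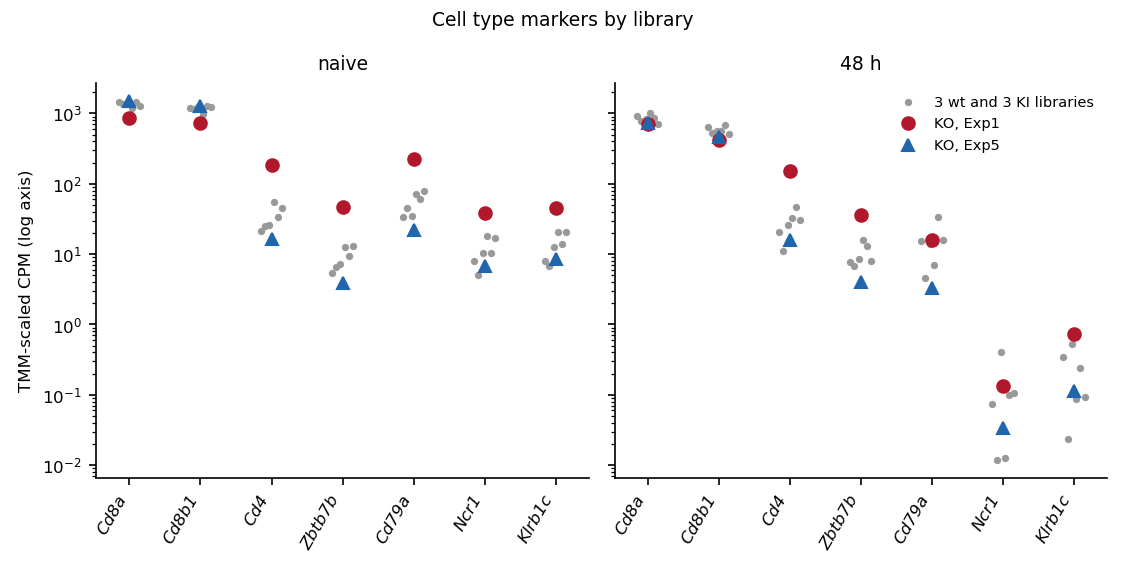
Levels (TMM-scaled CPM, log axis) of 2 CD8, 2 CD4, 1 B cell and 2 NK cell markers in naive libraries (left) and at 48 h (right), with KO Exp1 as red circles, KO Exp5 as blue triangles and the 3 wt and 3 KI libraries of that time as grey points. The naive Exp1 library is the highest for Cd4, Zbtb7b, Cd79a, Ncr1 and Klrb1c and the lowest for Cd8a and Cd8b1.

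Across the genome, 9326 of 21183 tested genes (44.0%) were called between 48 h and naive, of which 5012 (23.7%) were higher and 4314 (20.4%) lower. Of these, 6135 (29.0%) changed at least 2-fold, 3180 upward and 2955 downward. The direction was the same in both mice in 9148 of the 9326, which a call made from the same 2 mice favours. In 12897 genes (60.9%) the pair of naive libraries did not overlap with the pair at 48 h. With 2 libraries a side, such a separation is often seen by chance. Counts of called members in the lists below stand beside 23.7% higher and 20.4% lower over all tested genes. The share of higher calls was 53.7% with TMM scaling, 43.1% with upper-quartile scaling and 47.6% with library size alone, which moved the median log2 fold change of all genes from 0.01 to -0.17 and -0.10. When the 4 libraries labelled KO were fitted alone, with their own spread and 2 residual degrees of freedom, edgeR called 1373 genes.

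The 10 largest rises among genes averaging at least 10 CPM were led by Tg (ENSMUSG00000053469, chromosome 15, 66670753 to 66850721), the gene of thyroglobulin, which had 1.02 and 0.321 CPM before stimulation and 367 and 37.1 CPM at 48 h and a log2 fold change by edgeR of 8.21 (SE 0.91, adjusted p 1.14e-06). Tnip3, an inhibitor of NF-κB signalling, had 0.384 and 0.168 CPM before stimulation and 101 and 9.38 CPM at 48 h. Asns (ENSMUSG00000029752, chromosome 6, 7675169 to 7693254), asparagine synthetase, had 0.937 and 0.433 CPM before stimulation and 217 and 21.5 CPM at 48 h and a log2 fold change by edgeR of 7.43 (SE 1.17, adjusted p 5.51e-05). In all 3 of these genes both 48 h libraries lay far above both naive libraries, and the Exp1 library was far above the Exp5 library at 48 h. Gm17767, a long noncoding RNA, went from 0.180 and 0.0838 to 43.0 and 3.13 CPM, with the same order. Serpine2, a protease inhibitor, went from 0.817 and 0.335 to 45.6 and 131 CPM and Npas4, an activity-dependent transcription factor best known from neurons, from 0.252 and 0.475 to 20.9 and 49.2 CPM, with Exp5 the higher at 48 h in both. The other 4 were BC030867 (log2 fold change 6.58), the spindle protein gene Psrc1 (7.21), the checkpoint kinase gene Bub1 (6.41) and Gzmb. Gzmb (ENSMUSG00000015437, chromosome 14, 56258838 to 56262260), the gene of the cytotoxic protease granzyme B, had 40.8 and 10.1 CPM before stimulation and 2714 and 1219 CPM at 48 h, with a log2 fold change by edgeR of 6.27 (SE 1.00, adjusted p 6.15e-05). It belongs to a family of similar genes, so reads could be shared among them, and Tg has an exon over Gm17140 on the opposite strand.

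Of the 10 largest falls, Fos and Ifi208 had similar naive levels in both mice. Fos (ENSMUSG00000021250, chromosome 12, 85473890 to 85477273), an AP-1 subunit, had 317 and 347 CPM before stimulation and 6.26 and 4.95 CPM at 48 h, with a log2 fold change by edgeR of -5.89 (SE 0.37, adjusted p 3.21e-09). Ifi208, an interferon-inducible gene, went from 119 and 142 to 0.790 and 3.87 CPM. The other 8 were higher in the naive Exp1 than in the naive Exp5 library, and most are known from other cells. Igha, the constant region of IgA, went from 233 and 18.8 to 0.313 and 0.170 CPM, and Jchain, which joins immunoglobulin units, from 51.8 and 7.92 to 0.104 and 0.159 CPM. Ncr1 and Klrb1c, receptors of NK cells, went from 38.1 and 6.79 to 0.134 and 0.0340 CPM and from 45.1 and 8.48 to 0.730 and 0.113 CPM, and Lyz2, the lysozyme of myeloid cells, from 126 and 47.5 to 0.253 and 0.431 CPM. The complement receptor gene Cr2 of B cells went from 129 and 18.4 to 1.85 and 0.726 CPM. Bpifa2, a salivary gland marker, went from 41.1 and 15.3 to 0.0745 and 0.159 CPM, where no wt or KI library exceeded 4.91 CPM. Gzma, granzyme A, a protease of NK cells and effector T cells, went from 162 and 32.2 to 2.65 and 0.556 CPM. In a bulk library, fewer cells of a type and less RNA per cell cannot be told apart, and the part of other cells in these falls was not tested.

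**Figure D2:**
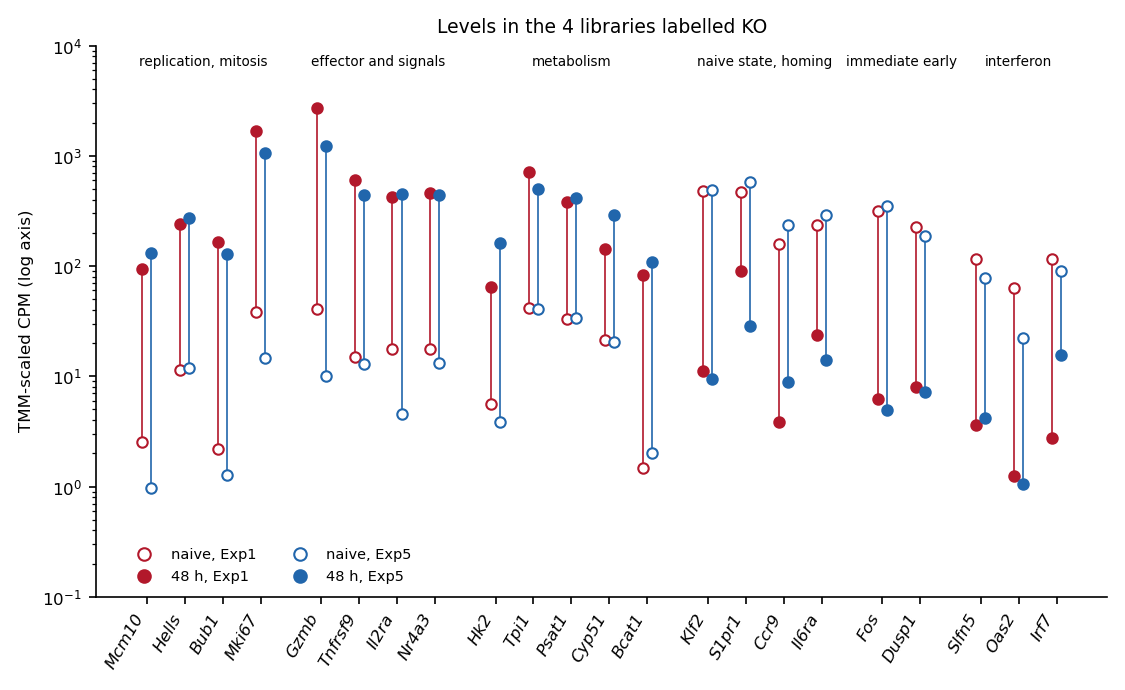
Levels (TMM-scaled CPM, log axis) of 22 genes in the 4 libraries labelled KO, naive as open and 48 h as filled circles, Exp1 in red and Exp5 in blue, with a line joining the libraries of a mouse. Each gene moves the same way in both mice, from 478 and 490 to 11.2 and 9.50 CPM for Klf2 and from 40.8 and 10.1 to 2714 and 1219 CPM for Gzmb.

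The naive-state programme fell. Of 25 tested genes of quiescence and the naive state, 16 were called lower and 1 higher, with a median log2 fold change of -0.88 against 0.01 over all genes. Klf2 (ENSMUSG00000055148, chromosome 8, 72319033 to 72321656), the factor that keeps naive T cells quiescent and circulating, had 478 and 489.6 CPM before stimulation and 11.2 and 9.50 CPM at 48 h, with a log2 fold change by edgeR of -5.55 (SE 0.42, adjusted p 1.99e-08). Both 48 h libraries lay far below both naive libraries, and the mice were alike. S1pr1 (ENSMUSG00000045092, chromosome 3, 115710433 to 115715072), the receptor for lymph node exit, had 465 and 579 CPM before stimulation and 90.7 and 28.3 CPM at 48 h and a log2 fold change by edgeR of -3.13 (SE 0.55, adjusted p 0.000155), and fell further in Exp5 (-4.33) than in Exp1 (-2.35). Txnip, a brake on glucose uptake, had 988 and 736 CPM before stimulation and 132 and 134 CPM at 48 h. The survival cytokine receptor gene Il7r went from 369 and 548 to 194 and 43.6 CPM, and the naive-state factor Lef1 from 365 and 503 to 218 and 127 CPM, both called lower and both lowest in Exp5 at 48 h. Ccr7, a lymph node homing receptor, was the 1 gene called higher, with 531 and 476 CPM before stimulation and 773 and 686 CPM at 48 h and a log2 fold change by edgeR of 0.53 (SE 0.17, adjusted p 0.0159). Of the 8 not called, Foxp1 had 268 and 254 CPM before stimulation and 233 and 263 CPM at 48 h and the cyclin-dependent kinase inhibitor Cdkn1b had 184 and 196 CPM before stimulation and 176 and 53.3 CPM at 48 h, the latter markedly lower at 48 h in Exp5 alone. The call did not hold without the KO mouse of Exp1 for Ccr7 (0.53) and without the KO mouse of Exp5 for Il7r (-0.93) and Ccr7 (0.54).

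Receptors for homing and adhesion fell in 17 of 31 and rose in 4 of 31 (median -1.52). Ccr9 (ENSMUSG00000029530, chromosome 9, 123678439 to 123784330), the receptor for the gut and thymus chemokine CCL25, had 158 and 236 CPM before stimulation and 3.83 and 8.79 CPM at 48 h, with a log2 fold change by edgeR of -4.96 (SE 0.49, adjusted p 2.66e-07). It overlaps exons of other genes, Slc6a20a among them, so its counts are uncertain. Cx3cr1, the fractalkine receptor, went from 13 and 6.19 to 0.730 and 0.182 CPM, and Itgae, the CD103 integrin chain, from 185 and 302 to 27.4 and 52.6 CPM. S1pr5, the sphingosine phosphate receptor of NK and effector cells, was at 11.9 and 3.14 CPM naive and at 0 and 0.0227 CPM at 48 h, and no fold is given. The rises were the chemokine receptor genes Ccr8 (from 0.757 and 0.335 to 20.4 and 2.72 CPM) and Ccr4 (from 3.20 and 0.797 to 11.7 and 30.2 CPM), and the integrin genes Itgav and Itgb1, with Ccr8 higher in Exp1 and Ccr4 higher in Exp5 at 48 h. Itgb1 went from 114 and 80.2 to 111 and 197 CPM, so that it was level in Exp1 and higher in Exp5. In edgeR the call was lost without the KO mouse of Exp5 for Itgb1 (-0.04). With the mouse as a block edgeR did not call Itgb1 (0.63, adjusted p 0.0673).

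Immediate early and feedback genes respond within minutes to hours of receptor signals. At 48 h 14 of 27 were called lower than in freshly isolated cells (51.9%) and 6 higher (22.2%), with a median of -0.76. The shares of all tested genes were 20.4% and 23.7%. Beside Fos, Dusp1 (ENSMUSG00000024190, chromosome 17, 26505590 to 26508519), a phosphatase that switches off MAP kinases, had 227 and 189 CPM before stimulation and 7.97 and 7.15 CPM at 48 h and a log2 fold change by edgeR of -4.78 (SE 0.24, adjusted p 7.18e-10). It overlaps Ergic1 on the opposite strand. Fosb went from 109.7 and 51.4 to 1.21 and 4.15 CPM and Jun from 389 and 373 to 26.5 and 36.5 CPM. In these 4 genes both 48 h libraries lay below both naive libraries. Without the KO mouse of Exp5, 3 of the list were called higher and 14 lower. Nr4a3 (ENSMUSG00000028341, chromosome 4, 48045153 to 48086447), a nuclear receptor induced by T cell receptor signals, was the largest rise, with 17.6 and 13.3 CPM before stimulation and 456 and 442 CPM at 48 h and a log2 fold change by edgeR of 4.86 (SE 0.40, adjusted p 3.81e-08). Dusp4 went from 12.3 and 3.72 to 90.8 and 46.2 CPM and Fosl1 from 0.793 and 1.54 to 2.89 and 13 CPM. Egr3 went from 11.4 and 9.84 to 12.2 and 56.2 CPM, higher only in Exp5, and Egr1 was not called, with 101 and 101 CPM before stimulation and 55.4 and 130.5 CPM at 48 h. At the same threshold edgeR made no call without the KO mouse of Exp5 for Fosl1 (1.86) and Egr3 (0.09).

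The T cell receptor complex and its proximal kinases were mixed. Of 29 tested genes, 6 were called higher (20.7%) and 9 lower (31.0%), beside 23.7% and 20.4% of all tested genes, with a median of -0.30, and in 24 of 29 the Exp1 change was above the Exp5 change (medians 0.11 and -0.66). Cblb (ENSMUSG00000022637, chromosome 16, 52031225 to 52208048), a ubiquitin ligase that restrains T cell receptor signals, rose the most, with 138 and 152 CPM before stimulation and 985 and 340.2 CPM at 48 h and a log2 fold change by edgeR of 2.19 (SE 0.38, adjusted p 0.000148). Zap70, the kinase next to the receptor, went from 147 and 159 to 257 and 194 CPM. The falls included Cd8b1 (-1.17), the kinase gene Prkcq (from 406 and 542 to 269 and 182 CPM) and the receptor chain gene Cd3g (from 441 and 654 to 305 and 263 CPM). The naive Exp1 library, low in Cd8a and Cd8b1, was also lower than Exp5 in Prkcq and Cd3g, and the part of its cell makeup was not tested. With the KO mouse of Exp1 left out, 17 of the list were called lower and 2 higher, and without that of Exp5, 5 and 6. No edgeR call was made without the KO mouse of Exp1 for Zap70 (0.30) and without the KO mouse of Exp5 for Cd3g (-0.53).

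Costimulatory and checkpoint receptors rose in 15 of 26 and fell in 6 (median 1.6). Tnfrsf9 (ENSMUSG00000028965, chromosome 4, 150914562 to 150946102), the costimulatory receptor 4-1BB, had 15 and 12.8 CPM before stimulation and 603 and 442 CPM at 48 h, with a log2 fold change by edgeR of 5.23 (SE 0.28, adjusted p 7.18e-10). The mice were close at each time. Lag3 (ENSMUSG00000030124, chromosome 6, 124904361 to 124911705), an inhibitory receptor for MHC class II, went from 5.56 and 2.45 to 331 and 164 CPM, with a log2 fold change by edgeR of 5.95 (SE 0.47, adjusted p 2.87e-08). The costimulatory receptor gene Tnfrsf4 (OX40) went from 12.2 and 7.62 to 342 and 120.0 CPM, and the inhibitory receptor gene Pdcd1 (PD-1) from 3.45 and 2.15 to 18.9 and 60.2 CPM, the first higher in Exp1 and the second in Exp5 at 48 h. Ctla4, Tigit, Tnfrsf18, Icos and Cd28 were also called higher. Cd69, an early activation marker, was lower at 48 h, with 322 and 301 CPM before stimulation and 99.5 and 103 CPM at 48 h. Cd244a (from 17.8 and 4.14 to 1.16 and 1.36 CPM), Havcr2 (from 2.45 and 0.727 to 0.447 and 0.0681 CPM) and Entpd1 (from 10.1 and 2.98 to 2.49 and 0.443 CPM) had the largest falls, and in each the naive Exp1 library was the highest, as for the markers of other cells. Calls were lost without the KO mouse of Exp1 for Cd244a (-1.60) and Havcr2 (-3.38), without the KO mouse of Exp5 for Havcr2 (-2.45), without the Exp5 library at 48 h for Entpd1 (-1.40) and without the naive Exp1 library for Entpd1 (-1.03).

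Receptors for cytokines and their SOCS feedback genes split, with 9 called higher (32.1%) and 10 lower (35.7%) of 28, beside 23.7% and 20.4% of all tested genes (median 0.05, -0.13 with upper-quartile scaling). Il2ra (ENSMUSG00000026770, chromosome 2, 11642807 to 11693193), the high-affinity interleukin-2 receptor chain, had 17.8 and 4.51 CPM before stimulation and 425 and 453 CPM at 48 h, with a log2 fold change by edgeR of 5.29 (SE 0.48, adjusted p 1.13e-07). It stands in the CD4 list as a marker of regulatory cells and here was alike in both mice at 48 h. Il12rb2, a chain of the interleukin-12 receptor, went from 12.6 and 5.37 to 657 and 126 CPM, far higher in Exp1 than in Exp5 at 48 h. Cish, a feedback inhibitor of interleukin-2 signals, went from 16.4 and 7.59 to 153 and 138 CPM. Il6ra (ENSMUSG00000027947, chromosome 3, 89864059 to 89913196), the interleukin-6 receptor chain of naive T cells, had 235 and 289 CPM before stimulation and 23.8 and 14 CPM at 48 h, with a log2 fold change by edgeR of -3.80 (SE 0.29, adjusted p 1.88e-08). Il18r1 went from 93.2 and 113 to 26.4 and 26.2 CPM and Il9r from 14 and 1.72 to 0.983 and 0.794 CPM, the latter highest in the naive Exp1 library. The call did not hold without the KO mouse of Exp1 for Il9r (-1.11).

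Among cytokines and chemokines 10 of 31 were called higher (32.3%) and 4 lower (12.9%), beside 23.7% and 20.4% of all tested genes (median 1.49). The mice differed here: the Exp1 change was above the Exp5 change in 6 of 31. On the log2(CPM + 0.5) scale the medians were 0.00 in Exp1 and 1.00 in Exp5. The 1.49 is a median of edgeR log2 fold changes, which lack that offset and can be large for genes near 0 counts. It lay above the median of either mouse. When the KO mouse of Exp1 was left out, 14 were called higher, and without that of Exp5, 4. Lif (ENSMUSG00000034394, chromosome 11, 4257557 to 4272514), a cytokine of the interleukin-6 family, had 0.925 and 0.741 CPM before stimulation and 16.6 and 49.1 CPM at 48 h, with a log2 fold change by edgeR of 5.30 (SE 0.75, adjusted p 1.83e-05). Xcl1, which attracts cross-presenting dendritic cells, went from 11.3 and 8.43 to 88.6 and 377 CPM. Il3 and Ccl1, which had the largest fitted rises, were at 0 counts in both naive libraries and at most 0.465 and 0.295 CPM at 48 h, so no fold is given. Ifng (ENSMUSG00000055170, chromosome 10, 118441046 to 118445892), the gene of interferon gamma, was not called, with 14.3 and 4.71 CPM before stimulation and 14.4 and 64.5 CPM at 48 h and an adjusted p of 0.0647 in edgeR. Its Exp1 libraries were level, and its Exp5 library at 48 h was the highest of the 4. Tnf went from 8.43 and 16.3 to 7.97 and 61.0 CPM and was not called either. Ccl5, a chemokine of memory and NK cells, went from 142 and 33.2 to 2.16 and 5.75 CPM, Csf1 from 9.51 and 2.40 to 1.83 and 1.11 CPM and Ltb from 385 and 385 to 89.7 and 191 CPM, all called lower. In edgeR the call was lost without the KO mouse of Exp1 for Csf1 (-1.11) and Ltb (-1.01).

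Of the cytotoxic granule genes, 7 were called higher and 7 lower of 25 (28.0% each, near the 23.7% higher and 20.4% lower over all tested genes), and 5 and 4 without the KO mouse of Exp5. Beside Gzmb, Serpinb6b, of a family of intracellular protease inhibitors, went from 29.5 and 15.5 to 695 and 199.8 CPM, and Serpinb9, which protects the cell from its own granzyme B, from 39.4 and 20.4 to 103 and 183 CPM. Gzmf was at 0 counts in both naive libraries and at 0.209 and 0.113 CPM at 48 h. Perforin, encoded by Prf1 (ENSMUSG00000037202, chromosome 10, 61297833 to 61304680), was lower at 48 h, with 75.9 and 59.0 CPM before stimulation and 18.9 and 42.3 CPM at 48 h and a log2 fold change by edgeR of -1.14 (SE 0.42, adjusted p 0.0352). Klrg1, a receptor of effector and NK cells, went from 9.81 and 2.40 to 0.209 and 0.0227 CPM and Gzmk from 1.33 and 0.866 to 0.0745 and 0 CPM. Gzma, Klrg1 and Gzmk were highest in the naive Exp1 library, in which NK markers were also highest. At the same threshold edgeR made no call without the KO mouse of Exp1 for Prf1 (-0.47) and without the KO mouse of Exp5 for Gzmk (-4.13).

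Of 32 tested factors of effector and memory fate, 12 were called higher (37.5%) and 5 lower (15.6%), with a median of 0.59. The shares of all tested genes were 23.7% and 20.4%. Irf8 (ENSMUSG00000041515, chromosome 8, 120736358 to 120756694), an interferon regulatory factor that B cells also express, had 123 and 17.2 CPM before stimulation and 246 and 485 CPM at 48 h. Irf4, which T cells induce with receptor signals, had 104 and 23.9 CPM before stimulation and 177 and 439.7 CPM at 48 h. At 48 h both were higher in Exp5 than in Exp1, and naive they were higher in Exp1. The part of B cell RNA in the naive Exp1 values was not tested. Batf3 rose at low levels, from 0.853 and 0.196 to 4.10 and 2.00 CPM. Tbx21, the gene of T-bet, went from 17.2 and 5.27 to 25.0 and 79.1 CPM, higher in Exp5, and Hif1a, the hypoxia-inducible factor, from 109 and 103 to 651 and 244 CPM, higher in Exp1. Id2 (ENSMUSG00000020644, chromosome 12, 25093799 to 25097140), a partner of effector differentiation, fell in both mice alike, with 118 and 127 CPM before stimulation and 17.9 and 22.5 CPM at 48 h and a log2 fold change by edgeR of -2.60 (SE 0.24, adjusted p 1.53e-07). Tox2 went from 1.89 and 0.461 to 0.0745 and 0.295 CPM and Prdm1, the gene of BLIMP-1, from 7.63 and 3.47 to 1.80 and 0.295 CPM. No edgeR call was made without the KO mouse of Exp1 for Tox2 (-0.64), without the KO mouse of Exp5 for Irf8 (0.99), Irf4 (0.76), Batf3 (2.26) and Tbx21 (0.53), without the Exp5 library at 48 h for Prdm1 (-1.62) and without the naive Exp1 library for Prdm1 (-1.73).

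Metabolic genes rose as lists. Glycolysis with glucose and lactate transport was called higher in 20 of 25, with a median of 2.06, 1.86 in Exp1 and 1.69 in Exp5. Tpi1 (ENSMUSG00000023456, chromosome 6, 124810586 to 124814296), triose phosphate isomerase, had 42.0 and 40.5 CPM before stimulation and 707 and 498 CPM at 48 h, with a log2 fold change by edgeR of 3.87 (SE 0.29, adjusted p 1.51e-08). Hk2, the hexokinase that starts glycolysis, went from 5.63 and 3.86 to 64.0 and 161 CPM, higher in Exp5, and Aldoc, an aldolase, from 1.73 and 0.950 to 65.7 and 3.17 CPM, higher in Exp1. Slc16a3, a lactate exporter, went from 3.57 and 2.01 to 85.6 and 29.8 CPM. Hk3 was the 1 gene called lower, from 4.48 and 3.06 to 0.998 and 1.61 CPM. Slc2a1, the glucose transporter GLUT1, went from 37.1 and 36.6 to 88.5 and 68.4 CPM. Gapdh, which has many pseudogenes, was not called (13.8 and 19.4 CPM before stimulation and 21.8 and 19.2 CPM at 48 h). Calls were lost without the KO mouse of Exp1 for Aldoc (1.74) and Hk3 (-0.92).

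Amino acid transporters and branched-chain transaminases rose in 11 of 17 and fell in 1 (median 0.92). Bcat1 (ENSMUSG00000030268, chromosome 6, 144993835 to 145076184), the cytosolic branched-chain transaminase, had 1.47 and 2.03 CPM before stimulation and 82.2 and 109 CPM at 48 h, with a log2 fold change by edgeR of 5.78 (SE 0.31, adjusted p 7.18e-10). It overlaps Gm26666 on the opposite strand. Slc7a5, the large neutral amino acid transporter, went from 57.4 and 61.9 to 315 and 319 CPM, Slc6a9 from 0.673 and 0.391 to 34.7 and 10.9 CPM and Slc1a4 from 1.30 and 3.10 to 32.1 and 15.2 CPM, the last pair higher in Exp1. Slc7a8 was the 1 gene called lower, from 2.56 and 0.727 to 0.0447 and 0.397 CPM. Serine and one-carbon metabolism, which supplies nucleotides, rose in 19 of 27 and fell in 0 (median 1.55). Psat1 (ENSMUSG00000024640, chromosome 19, 15904678 to 15947337), of serine synthesis, had 33.1 and 33.8 CPM before stimulation and 377 and 417 CPM at 48 h, with a log2 fold change by edgeR of 3.57 (SE 0.24, adjusted p 6.49e-09). Mthfd2, the mitochondrial folate enzyme, went from 26.2 and 32.6 to 549.6 and 256 CPM, and Tyms, thymidylate synthase, from 6.21 and 4 to 45.2 and 119 CPM. Aldh1l2 rose almost only in Exp1, from 0.180 and 0.210 to 19.7 and 0.431 CPM, and has an exon over D10Wsu102e. The call did not hold without the KO mouse of Exp1 for Slc7a8 (-0.86) and Aldh1l2 (1.04).

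Cholesterol synthesis was called higher in 23 of 28 and lower in 0, with a median of 1.32, 1.22 in Exp1 and 1.62 in Exp5. Cyp51 (ENSMUSG00000001467, chromosome 5, 4081145 to 4104746), lanosterol demethylase, had 21.2 and 20.6 CPM before stimulation and 142 and 289 CPM at 48 h, with a log2 fold change by edgeR of 3.36 (SE 0.27, adjusted p 3.02e-08). Idi1, isopentenyl diphosphate isomerase, went from 2.08 and 1.5 to 8.34 and 22.4 CPM, and Fdps, farnesyl diphosphate synthase, from 8.92 and 10.01 to 64.4 and 58.1 CPM. Scap, Lbr, Tm7sf2 and Ggps1 were among the genes not called. Fatty acid synthesis and activation rose in 12 of 20 and fell in 1 (median 1.10). Scd2, a stearoyl-CoA desaturase, went from 82.6 and 88.1 to 1275 and 794 CPM, Fads2 from 0.565 and 0.112 to 29.3 and 16 CPM and Acsl3 from 9.48 and 9.07 to 59.6 and 49.5 CPM, while Acss2, the acetyl-CoA synthetase, went from 71.4 and 97.2 to 44.3 and 23.9 CPM. In edgeR the call was lost without the KO mouse of Exp5 for Acss2 (-0.69).

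Mitochondrial lists changed less. Nuclear genes of the respiratory chain were called higher in 36 of 54 and lower in 0, with a median of 0.64, and 28 were called higher with upper-quartile scaling. Cox5a, a subunit of cytochrome oxidase, went from 59.0 and 64.7 to 162 and 209 CPM, Ndufb6 of complex I from 14.2 and 16.6 to 34.3 and 57.8 CPM and Sdhd of complex II from 59.6 and 64.1 to 124 and 182 CPM. Genes of the mitochondrial genome were called higher in 2 and lower in 4 of 12 (16.7% and 33.3%, beside 23.7% and 20.4% of all tested genes, median -0.65), 1 and 3 without the KO mouse of Exp1 and 0 and 5 without that of Exp5. The gene of mt-encoded cytochrome b (mt-Cytb) went from 4244 and 6184 to 1111 and 3483 CPM, mt-Nd4 from 1489 and 2092 to 382 and 1118 CPM and mt-Nd6 from 849 and 1182 to 432 and 622 CPM, and the Exp1 48 h library was the lowest in each. The 2 called higher were at low levels, mt-Atp6 only in Exp5 (from 0.541 and 0.573 to 0.0745 and 17 CPM) and mt-Nd4l with 0 counts in 1 naive library. Some genes of the mitochondrial genome overlap a neighbour. The mitochondrial genome took 2.46% and 3.26% of counts in the naive libraries and 1.99% and 2.23% at 48 h. The part of this share in the changes of the list was not tested. Fatty acid oxidation rose in 11 of 23 and fell in 2 (median 0.49), where the count lower was 0 when either mouse was left out, with Acadl going from 47.3 and 53.0 to 189 and 122 CPM and the carnitine transferase gene Cpt1a called lower (from 93.6 and 101 to 66.4 and 57.9 CPM). Cpt1c, which rose most, stayed at or under 1.13 CPM. At the same threshold edgeR made no call without the KO mouse of Exp1 for Cpt1a (-0.79) and mt-Nd4l (4.84). The same held without the KO mouse of Exp5 for Cpt1a (-0.50) and mt-Nd4l (3.60). It held without the Exp1 library at 48 h for mt-Cytb (-0.58) and mt-Nd4 (-0.68). It also held without the naive Exp5 library for mt-Cytb (-0.89), mt-Nd4 (-0.99) and mt-Nd6 (-0.69). The call turned to the opposite direction without the KO mouse of Exp5 for mt-Atp6 (-2.83, adjusted p 0.0476) and without the Exp5 library at 48 h for mt-Atp6 (-2.88, adjusted p 0.0245), by edgeR. With the mouse as a block edgeR did not call mt-Atp6 (1.64, adjusted p 0.441).

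Genes of mitochondria-ER contacts and calcium transfer, to which the series title links the Tcaim product, were called higher in 15 of 31 (48.4%). They were called lower in 5 (16.1%), beside 23.7% and 20.4% of all tested genes (median 0.32). Vdac1 (ENSMUSG00000020402, chromosome 11, 52360860 to 52389397), the channel of the outer mitochondrial membrane, had 81.8 and 101 CPM before stimulation and 386 and 313 CPM at 48 h, with a log2 fold change by edgeR of 1.94 (SE 0.16, adjusted p 5.04e-08). Hspa9, the mitochondrial chaperone that links it to the calcium channels of the ER, went from 255 and 304 to 995 and 1027 CPM. Mcub, the inhibitory subunit of the calcium uniporter, went from 2.56 and 3.20 to 14.6 and 3.70 CPM, with most of the rise in Exp1. Osbpl5, a lipid transfer protein of contact sites, had 38.5 and 34.7 CPM before stimulation and 7.91 and 8.01 CPM at 48 h, with a log2 fold change by edgeR of -2.20 (SE 0.17, adjusted p 2.51e-08), and was alike in both mice. The calcium channel gene Itpr2 went from 199 and 213 to 113 and 56.2 CPM and the sorting protein gene Pacs2 from 117 and 149 to 80.0 and 65.9 CPM, both called lower. With upper-quartile scaling 9 of the list were called higher and 5 lower. No edgeR call was made without the KO mouse of Exp1 for Mcub (0.21).

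The mice parted in the lists of ribosome biogenesis and ribosomal proteins. Ribosome biogenesis was called higher in 28 of 45 and lower in 0 (median 0.84), but the median change was 0.24 in Exp1 and 1.17 in Exp5, and the Exp1 change was above the Exp5 change in 3 of 45. Without the KO mouse of Exp1 41 were called higher, and without that of Exp5 9 higher and 1 lower. Ncl (ENSMUSG00000026234, chromosome 1, 86344719 to 86359400), nucleolin, had 819 and 1053 CPM before stimulation and 2619 and 4268 CPM at 48 h, with a log2 fold change by edgeR of 1.88 (SE 0.22, adjusted p 2.49e-06). Npm1, nucleophosmin, went from 221 and 276 to 916 and 870.0 CPM, alike in both mice, and Wdr12 from 25.7 and 29.9 to 68.4 and 108 CPM. Nolc1, another nucleolar protein, shows the split, from 118 and 134.7 to 139 and 623 CPM. Below the 23.7% and 20.4% of all tested genes, cytosolic ribosomal proteins were called higher in 5 (9.80%) and lower in 3 (5.88%) of 51 (median 0.14, -0.04 with upper-quartile scaling). Their Exp1 change was the larger in 48 of 51, with medians of 0.40 and -0.30. Without the KO mouse of Exp1 0 were called higher and 5 lower, and without that of Exp5 13 and 2. Rps13 fell in both mice, from 23.2 and 20.3 to 7.05 and 5.96 CPM. Many ribosomal protein genes have near-identical pseudogenes, so these counts are uncertain. Calls were lost without the KO mouse of Exp5 for Nolc1 (0.24).

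The lists of DNA replication and of mitosis had the highest medians. All 53 tested genes of DNA replication and the G1/S step were called higher, with a median log2 fold change of 2.58, 2.25 in Exp1 and 2.86 in Exp5. In the fit lacking the KO mouse of Exp1 all 53 were called higher, and without that of Exp5 51. Mcm10 (ENSMUSG00000026669, chromosome 2, 4989714 to 5012791), a factor for firing replication origins, had 2.55 and 0.978 CPM before stimulation and 93.4 and 131 CPM at 48 h, with a log2 fold change by edgeR of 5.98 (SE 0.45, adjusted p 1.68e-08). Cdc6, which loads the replicative helicase, went from 2.64 and 1.51 to 54.3 and 116 CPM, and Rrm2, the ribonucleotide reductase subunit, from 10.2 and 4.96 to 118 and 396 CPM. In Cdc6 and Rrm2 the Exp5 library was the higher at 48 h. Hells (ENSMUSG00000025001, chromosome 19, 38930915 to 38971051), a chromatin remodeller of replicating cells, had 11.4 and 11.8 CPM before stimulation and 242 and 273 CPM at 48 h, with a log2 fold change by edgeR of 4.47 (SE 0.23, adjusted p 7.18e-10). Mcm8, a helicase of the MCM family, had 2.95 and 3.09 CPM before stimulation and 54.5 and 37.2 CPM at 48 h.

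Promoters of these genes were read because the lists moved as blocks. E2F factors, which drive genes of S phase, bind the words TTTCCCGC, TTTGGCGC, TTTCGCGC or TTTGCCGC on either strand, and matches may overlap. Of the 55 promoters of 45 replication genes in the RefSeq table (GRCm38.p6, 250 bases before to 50 after the start), 20 (36.4%) held at least 1 of these words. The share was 2.26% of all 32851 promoters of 27025 genes. The promoters of Hells (chr19:38930740-38931039, plus strand) and Mcm8 (chr2:132815891-132816190, plus strand) are shown for the genes above, with the E2F word in capitals, which in Mcm8 is read on the other strand.
Hells: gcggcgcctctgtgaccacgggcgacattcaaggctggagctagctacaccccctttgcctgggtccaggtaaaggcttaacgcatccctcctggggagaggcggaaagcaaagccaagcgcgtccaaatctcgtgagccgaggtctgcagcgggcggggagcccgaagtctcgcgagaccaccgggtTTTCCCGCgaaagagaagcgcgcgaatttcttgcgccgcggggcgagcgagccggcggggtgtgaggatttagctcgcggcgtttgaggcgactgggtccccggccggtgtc
Mcm8: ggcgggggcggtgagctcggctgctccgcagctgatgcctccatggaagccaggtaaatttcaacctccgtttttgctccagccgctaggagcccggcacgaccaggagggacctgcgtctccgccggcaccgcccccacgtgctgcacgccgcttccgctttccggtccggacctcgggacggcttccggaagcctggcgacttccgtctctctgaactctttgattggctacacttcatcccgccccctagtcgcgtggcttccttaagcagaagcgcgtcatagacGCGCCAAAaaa
A match is a description of the letters, and binding was not measured.

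Of 45 tested genes of mitosis and G2/M, 43 were called higher and 1 lower, the largest median of any list at 4.73, 4.26 in Exp1 and 4.86 in Exp5. Bub1 (ENSMUSG00000027379, chromosome 2, 127801122 to 127831865), a kinase of the spindle checkpoint, had 2.19 and 1.27 CPM before stimulation and 166 and 129 CPM at 48 h, with a log2 fold change by edgeR of 6.41 (SE 0.47, adjusted p 1.47e-08). Hmmr, a spindle-associated protein, went from 2.85 and 1.19 to 149 and 137 CPM, and the phosphatase gene Cdc25c from 0.480 and 0.140 to 26.1 and 18 CPM. Mki67, the proliferation marker Ki-67, had 38.5 and 14.5 CPM before stimulation and 1664 and 1049 CPM at 48 h. All 4 were higher in the naive Exp1 than in the naive Exp5 library. Cdca8 (ENSMUSG00000028873, chromosome 4, 124918465 to 124939311), a subunit of the chromosomal passenger complex, had 5.87 and 3.73 CPM before stimulation and 132 and 122 CPM at 48 h, with a log2 fold change by edgeR of 4.72 (SE 0.33, adjusted p 9.66e-09). Cdc25b was not called, and Pttg1, securin, was the 1 gene called lower, with 31.4 and 39.3 CPM before stimulation and 24.3 and 24.2 CPM at 48 h and a log2 fold change by edgeR of -0.54 (SE 0.21, adjusted p 0.0405). Genes of late cell cycle commonly hold a CHR word (TTTGAA) and CCAAT boxes. Both were found in 27 of 41 promoters of 38 mitosis genes (65.9%), against 6.95% of all promoters. For CHR alone the shares were 73.2% and 17.9%, and for CCAAT alone 75.6% and 37.4%. The promoter of Cdca8 (chr4:124936868-124937167, minus strand) is shown with both words in capitals, CCAAT read on the other strand as ATTGG, and TTTGAA overlaps the last of these.
Cdca8: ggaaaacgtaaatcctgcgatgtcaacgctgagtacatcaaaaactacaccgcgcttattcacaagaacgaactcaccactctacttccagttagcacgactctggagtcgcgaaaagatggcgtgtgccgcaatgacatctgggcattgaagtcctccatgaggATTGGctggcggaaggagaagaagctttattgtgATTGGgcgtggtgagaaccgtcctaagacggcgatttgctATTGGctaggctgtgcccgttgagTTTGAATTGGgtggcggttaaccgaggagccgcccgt
The call did not hold without the KO mouse of Exp1 for Pttg1 (-0.69) and without the KO mouse of Exp5 for Pttg1 (-0.37).

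Beside 23.7% and 20.4% of all tested genes, cyclins and cyclin-dependent kinase inhibitors rose in 8 (42.1%) and fell in 2 (10.5%) of 19 (median 0.12, -0.06 with upper-quartile scaling). Without the KO mouse of Exp1 5 were called lower, and without that of Exp5 1. Cdkn1a (ENSMUSG00000023067, chromosome 17, 29090976 to 29100727), the inhibitor p21, had 3.99 and 2.03 CPM before stimulation and 67.9 and 119 CPM at 48 h, with a log2 fold change by edgeR of 4.95 (SE 0.69, adjusted p 1.4e-05). E2f3 went from 8.59 and 8.15 to 18.4 and 55.3 CPM and Cdkn2c from 4.13 and 4.19 to 15 and 18.9 CPM. Ccnd1, cyclin D1, fell, from 6.63 and 3.06 to 0.209 and 0.681 CPM, and Cdkn1c, at under 1 CPM throughout, fell as well. In the Myc network, 3 of 13 were called higher (23.1%, against 23.7% of all tested genes) and 1 lower (7.69%, against 20.4%), so the higher calls were no more frequent than over all genes. Myc itself had 163 and 182 CPM before stimulation and 259 and 368 CPM at 48 h, with a log2 fold change by edgeR of 0.86 (SE 0.23, adjusted p 0.00548). Mxd3 went from 12.3 and 11.2 to 25.5 and 32.9 CPM, Tfap4, also called higher, was higher in Exp1 alone, from 16.3 and 23.5 to 41.1 and 22.7 CPM, and Mycl fell from low levels, from 1.25 and 0.405 to 0.119 and 0.0567 CPM. In edgeR the call was lost without the KO mouse of Exp1 for Tfap4 (-0.05) and Mycl (-2.80). It was also lost without the KO mouse of Exp5 for Myc (0.66) and Cdkn1c (-1.37). With the mouse as a block edgeR did not call Tfap4 (0.64, adjusted p 0.0602).

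Type I interferon-stimulated genes were the list with the most falls. Of 40 tested, 30 were called lower and 3 higher, with a median of -1.67, -2.15 in Exp1 and -1.05 in Exp5. The Exp1 change was above the Exp5 change in 3 of 40. Without the KO mouse of Exp1 19 were called lower and 4 higher, and without that of Exp5 32 and 0. Slfn5 (ENSMUSG00000054404, chromosome 11, 82951349 to 82964840), of the Schlafen family, had 116 and 77.5 CPM before stimulation and 3.65 and 4.16 CPM at 48 h, with a log2 fold change by edgeR of -4.63 (SE 0.46, adjusted p 3e-07). Oas2, which senses double-stranded RNA, had 62.8 and 22.1 CPM before stimulation and 1.25 and 1.04 CPM at 48 h, with a log2 fold change by edgeR of -5.21 (SE 0.64, adjusted p 3.7e-06), and Oasl2 went from 39.7 and 22.3 to 0.477 and 3.04 CPM. Slfn5 overlaps Slfn5os on the opposite strand, and Oas genes form a family that may share reads. Irf7 (ENSMUSG00000025498, chromosome 7, 141262706 to 141266481), which amplifies the interferon response, had 116 and 91.0 CPM before stimulation and 2.77 and 15.5 CPM at 48 h, both 48 h libraries lying below both naive ones. The 3 genes called higher were Gbp2 and Igtp, GTPases that interferon gamma also induces, and Bst2. Gbp2 had 114 and 135.5 CPM before stimulation and 129 and 753 CPM at 48 h. Igtp had 171 and 203 CPM before stimulation and 202 and 739 CPM at 48 h. In both genes the Exp5 48 h library stood alone, far above the rest. The interferon element GAAANNGAA, on either strand and with matches that can overlap, was in 23 of 37 promoters of 30 genes of the list (62.2%), against 8.56% of all promoters. The promoter of Slfn5 (chr11:82951852-82952151, plus strand) held 2 such words, in capitals, the second read on the other strand.
Slfn5: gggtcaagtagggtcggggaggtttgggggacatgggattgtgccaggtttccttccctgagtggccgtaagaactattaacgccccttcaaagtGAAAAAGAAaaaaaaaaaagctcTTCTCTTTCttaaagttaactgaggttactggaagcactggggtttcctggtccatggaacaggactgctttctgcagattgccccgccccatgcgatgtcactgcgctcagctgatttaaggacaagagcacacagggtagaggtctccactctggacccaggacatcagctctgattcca
At the same threshold edgeR made no call without the KO mouse of Exp1 for Oasl2 (-2.87) and without the KO mouse of Exp5 for Gbp2 (0.17) and Igtp (0.24).

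The unfolded protein and amino acid stress genes rose in 16 of 30 and fell in 4 (median 0.70). Asns led the list. Trib3, a pseudokinase induced by ATF4, went from 2.73 and 2.42 to 68.7 and 11.3 CPM and Ddit3, the gene of CHOP, from 31.0 and 28.8 to 164 and 19 CPM, with the Exp1 library the highest at 48 h in each. Chac1 was at 0 counts in 1 naive library and at 5.27 and 3.57 CPM at 48 h. Hspa5, the ER chaperone BiP, was not called (794 and 654 CPM before stimulation and 487 and 838 CPM at 48 h). Dnajb9, an ER cochaperone, had 108 and 92.5 CPM before stimulation and 9.21 and 7.91 CPM at 48 h, with a log2 fold change by edgeR of -3.55 (SE 0.29, adjusted p 3.81e-08), and Ppp1r15a, which restores translation after stress, went from 539.5 and 433 to 66.2 and 33.2 CPM. In the BCL2 family 7 of 17 were called higher (41.2%) and 1 lower (5.88%), beside 23.7% and 20.4% of all tested genes. Bcl2l1 (ENSMUSG00000007659, chromosome 2, 152780668 to 152831728), the survival gene of BCL-XL, had 16.9 and 12.2 CPM before stimulation and 68.3 and 183 CPM at 48 h, with a log2 fold change by edgeR of 3.12 (SE 0.39, adjusted p 4.24e-06). Bcl2a1d went from 4.26 and 1.24 to 16.5 and 28.4 CPM and Bcl2a1b from 16.1 and 11.5 to 50.9 and 96.0 CPM, near-identical genes whose reads cannot be assigned with certainty. Mcl1 was the 1 called lower, from 655 and 586 to 339 and 421 CPM, and Bcl2 was not called (168 and 207 CPM before stimulation and 304 and 107 CPM at 48 h). No edgeR call was made without the KO mouse of Exp1 for Ddit3 (-0.59) and Mcl1 (-0.47). With the mouse as a block edgeR did not call Ddit3 (0.91, adjusted p 0.164).

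**Figure D3:**
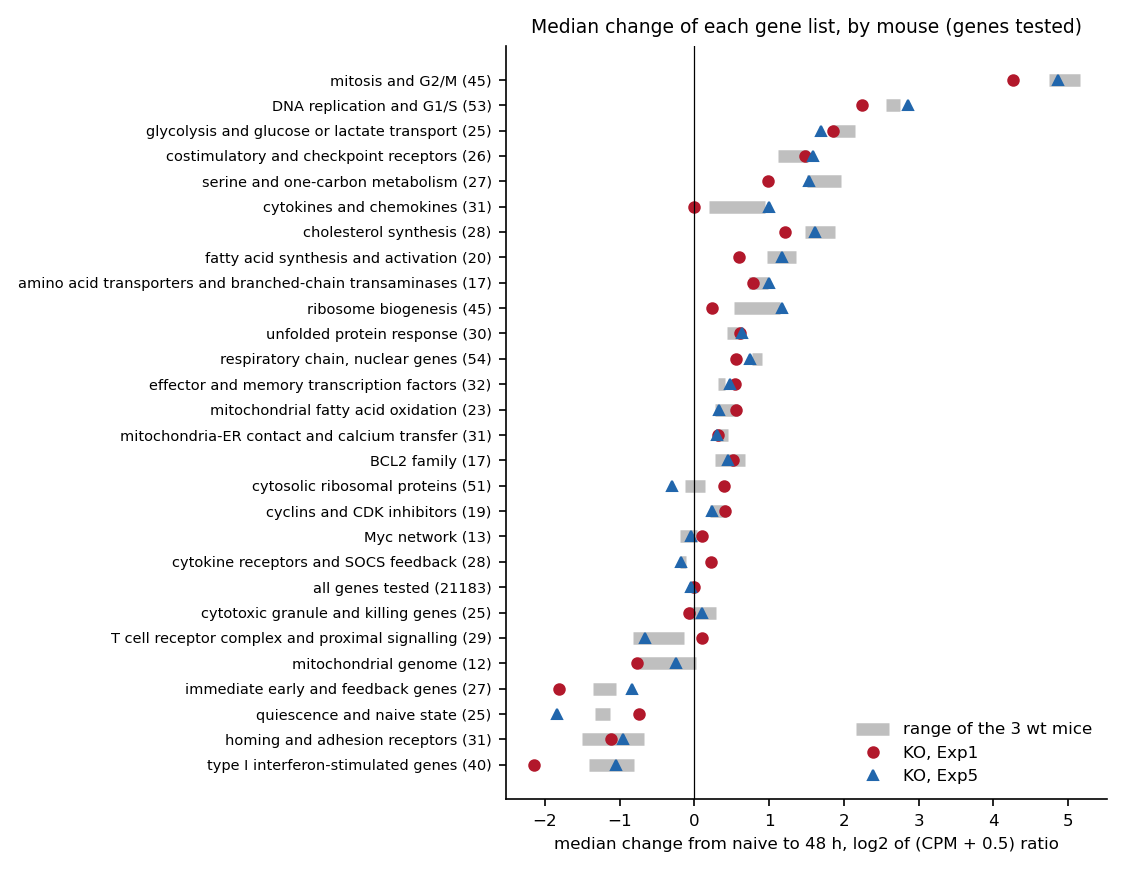
Median log2 change from naive to 48 h of each of the 27 gene lists and of all tested genes, for KO Exp1 (red), KO Exp5 (blue) and the range of the 3 wt mice (grey bar), on the log2(CPM + 0.5) scale. The mitosis list lies highest, at 4.26 and 4.86, and the KO mice lie apart for ribosome biogenesis (0.24 and 1.17) and for cytosolic ribosomal proteins (0.40 and -0.30).

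The mice labelled KO were compared gene by gene, without a test, as the difference between the Exp1 and the Exp5 change. Of the 9326 called genes, 351 (3.76%) differed at least 4-fold, 112 with the larger value in Exp1 and 239 in Exp5. Over the same genes the share was 0.118% to 1.05% between pairs of wt or KI mice. The correlation of the changes of the pair, a description across genes that share libraries, was 0.84, against 0.92 to 0.97 for wt and KI pairs. Among genes averaging at least 10 CPM, the largest excess of Exp1 was in Cd7, Aldoc, Gm17767, Ndrg1 and Gm17035. Ndrg1 (ENSMUSG00000005125, chromosome 15, 66929318 to 66969640), a stress and hypoxia response gene, had 15 and 12.2 CPM before stimulation and 142 and 11.7 CPM at 48 h, so that it was higher in Exp1 and level in Exp5. Gm17035 lies antisense over Ndrg1 and moved with it, from 3.36 and 2.93 to 33.1 and 2.80 CPM, and without strand the counts of this pair cannot be told apart. Cd7, a T and NK cell surface protein, went from 73.8 and 78.6 to 32.1 and 2.43 CPM, with by far the lowest value in Exp5 at 48 h. The largest excess of Exp5 was in Marcksl1, Irf8, Apoe, Iigp1 and Tnfsf11. Marcksl1 went from 25.2 and 8.01 to 10.5 and 92.4 CPM and the interferon-inducible GTPase gene Iigp1 from 24.1 and 32.1 to 10.9 and 193 CPM, both lower in Exp1 and higher in Exp5. Tnfsf11, the cytokine RANKL, went from 2.83 and 1.34 to 6.56 and 48.1 CPM. Apoe, an apolipoprotein of macrophages, went from 50.9 and 16.5 to 2.52 and 13 CPM, highest in the naive Exp1 library. Experiment and mouse coincide here and cannot be told apart. Calls were lost without the KO mouse of Exp1 for Ndrg1 (-0.05), Gm17035 (-0.06) and Apoe (-0.33) and without the KO mouse of Exp5 for Cd7 (-1.20), Iigp1 (-1.15) and Tnfsf11 (1.21). The call turned to the opposite direction without the KO mouse of Exp5 for Marcksl1 (-1.26, adjusted p 0.0303) and without the Exp5 library at 48 h for Iigp1 (-1.37, adjusted p 0.0198), by edgeR. With the mouse as a block edgeR did not call Ndrg1 (1.61, adjusted p 0.0849), Gm17035 (1.65, adjusted p 0.0884), Marcksl1 (1.14, adjusted p 0.308) and Iigp1 (0.74, adjusted p 0.416).

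**Figure D4:**
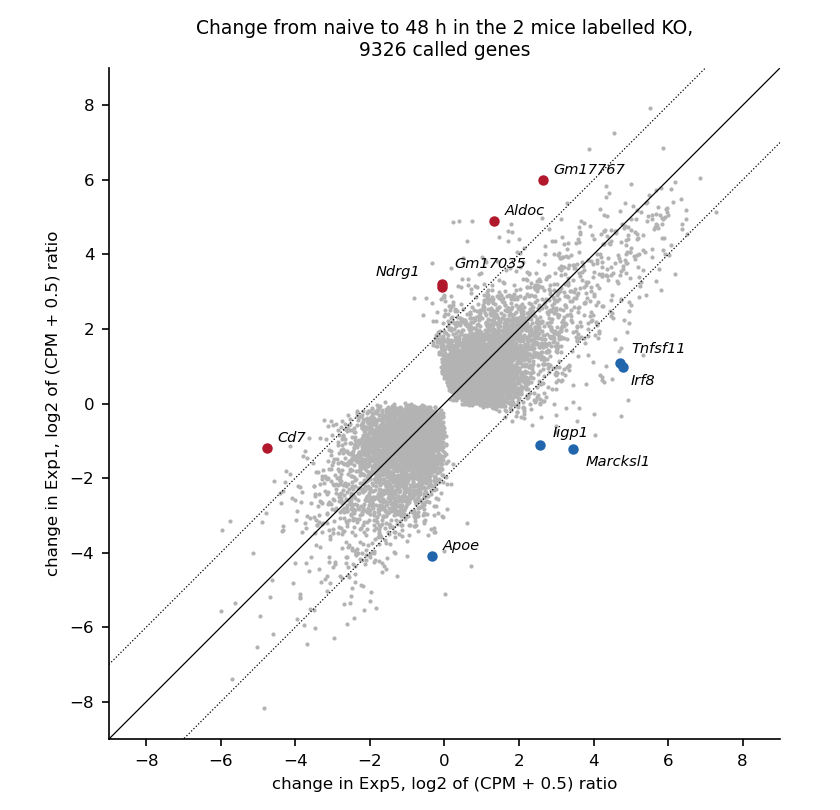
Change from naive to 48 h in the KO mouse of Exp1 (vertical) against that of Exp5 (horizontal), as log2 of the (CPM + 0.5) ratio, for the 9326 called genes, with dotted lines at a 4-fold difference and the 10 named genes marked (red for excess in Exp1, blue for excess in Exp5). Of these genes, 351 lie outside the dotted lines.

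The change in the libraries labelled KO was then set against that in wt and in KI mice, as the interaction of genotype and time. Against wt, edgeR called 0 of 21183 genes (0%), with 496 at an unadjusted p under 0.05, and DESeq2 called 0 as well. Of the 9326 genes called in KO, 8523 (91.4%) were also called in wt, all in the same direction. In wt 11942 of all 21183 tested genes were called. These 2 comparisons share no libraries but come from 1 fit, with the same filter, scaling and spread for each gene. A gene of low spread is therefore favoured for a call in both. The count of 0 against wt depended on which KO library at 48 h was kept. Without that of Exp5 genes were called, but only the Exp1 library then stood for KO at 48 h. That library lay apart on the second principal component (127), and its spread was taken from the other groups. Such a fit cannot tell a difference from wt apart from the deviation of 1 library. The count of 0 does not show equal responses. Klf2 changed by -5.55 in KO and -4.73 in wt, a difference of -0.82 (SE 0.45), and Gzmb by 6.27 and 7.17, a difference of -0.90 (SE 1.03).

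Against KI, 25 genes (0.118%) were called, 15 with a larger and 10 with a smaller change in KO, and 2502 had an unadjusted p under 0.05. In all 25 both KO mice lay outside the range of the 3 KI mice, and the KO change was nearer to that of wt than to that of KI. Choosing genes by a KO minus KI difference favours both counts, so they add no separate evidence. Of the 25, 22 were called in the KO change itself. Tcaim, far higher in the libraries labelled KI, was among them, at -0.97 in KO and 0.77 in KI. Mvd (ENSMUSG00000006517, chromosome 8, 122433601 to 122443422), mevalonate diphosphate decarboxylase of cholesterol synthesis, had 18.3 and 18.4 CPM before stimulation and 45.5 and 44.6 CPM at 48 h in KO. Its change was 1.30 in KO, 1.40 in wt and -0.28 in KI, a KO minus KI difference of 1.58 (SE 0.22, edgeR adjusted p 0.0202). Fdft1, squalene synthase, the other cholesterol gene among the 25, changed by 2.2 in KO and 1.12 in KI, and overlaps Ctsb on the opposite strand. Oas3 (ENSMUSG00000032661, chromosome 5, 120753098 to 120777661), an interferon-induced sensor of double-stranded RNA, had 71.7 and 49.5 CPM before stimulation and 25.0 and 25.1 CPM at 48 h, and fell less in KO (-1.28) than in KI (-2.96), with wt at -0.74. Another 3 interferon-inducible genes were among the 25. Usp18 changed by -0.65 in KO and -2.15 in KI, Bst2 by 1.07 and -0.85, and Trim25 by 0.10 and -0.83. In the KO change itself the call was lost without the KO mouse of Exp1 for Usp18 (-0.61) and without the KO mouse of Exp5 for Usp18 (-0.67) and Bst2 (0.59).

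Among the others, Zfp341, a zinc finger factor, changed by 1.62 in KO and -0.02 in KI, together with Gm14198, which lies antisense over it. Pon2, a paraoxonase of mitochondria and the ER, fell in KO (from 41.9 and 39.6 to 24.1 and 22.5 CPM, -0.81) and changed by 0.09 in KI. Uchl1, a ubiquitin hydrolase, was at 0.276 and 0.307 CPM before stimulation and 0.581 and 0.601 CPM at 48 h in KO and rose in wt (3.45) and KI (4.89). Its KO level was under 1 CPM in all 4 libraries. Rbmx, an RNA-binding protein, fell in KO (-1.11) and changed by 0.27 in KI. Exons of Uchl1, Pon2, Usp18, Tpi1, Irf7, Cyp51 and Cdca8 overlap a gene on the opposite strand and those of Igtp overlap Irgm2, so their counts are uncertain, since the strand setting of the counting is not known here. The count of 25 changed with single mice. It was 5 without the KO mouse of Exp1, 2075 without that of Exp5, 2768 without the Exp5 library at 48 h, 1 without the naive Exp1 library and 0 without any 1 KI mouse. A fit that leaves 1 KO library at a time takes the spread of that library from the other groups. With the mouse as a block the count was 83, and with DESeq2 361. The KI mice also differed from the KO mice in line and partly in sex, so none of these differences can be assigned to Tcaim alone.

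**Figure D5:**
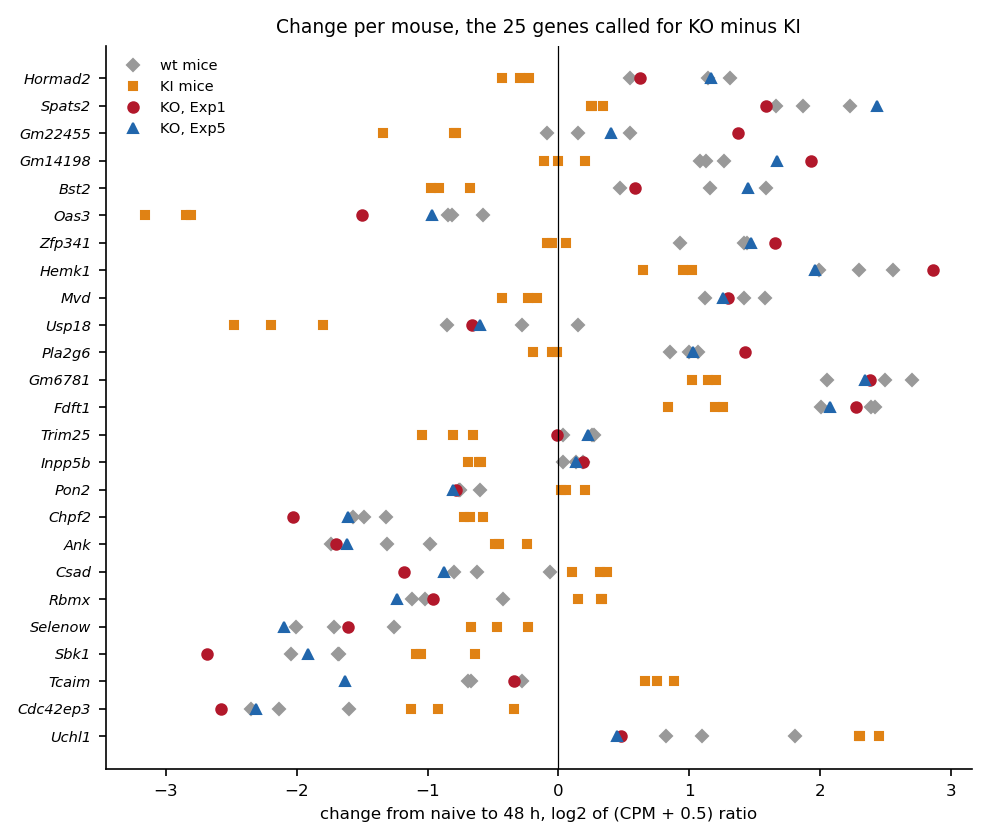
Change from naive to 48 h, as log2 of the (CPM + 0.5) ratio, in each KO mouse (red circle Exp1, blue triangle Exp5), each of 3 wt mice (grey diamonds) and each of 3 KI mice (orange squares), for the 25 genes called between KO and KI. In every gene both KO mice lie outside the range of the KI mice, which the choice of genes by that difference favours.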

How the data were processed

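Per the labels, poly(A) RNA was sequenced as paired ends from a stranded kit, and the submitters' processing notes name TopHat2 2.1.0, Bowtie2 2.2.5, SAMtools 0.1.19, featureCounts, DESeq2 1.6.3 and GRCm38. The strand setting of counting is not given in the sources used here. The authors deposited whole-number counts for 46603 genes, the only values tested. The deposited FPKM table gave gene symbols and positions and its values entered no test. Groups came from the labels. Genes were kept with filterByExpr (minimum count 10, total 15), leaving 21183, scaled with TMM and fitted as 8 group means over all 22 libraries (14 residual degrees of freedom) in edgeR 4.0.16 (quasi-likelihood test, R 4.3.3, Benjamini-Hochberg). The code was tested on simulated data. DESeq2 1.42.0 was an alternative. Change per mouse is log2 of the ratio of CPM + 0.5, with 0.1 and 2 as alternatives. Libraries of a number came from 1 mouse, which pairs them: deviations from the group mean correlated at r = 0.155 within a KO mouse and -0.155 across, a value that 2 mice fix up to its sign.

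Named genes were the 10 largest rises and 10 largest falls among called genes averaging at least 10 CPM with 1 direction in both mice, the 5 largest excesses of each mouse, the 3 largest rises and falls of each of 27 lists, up to 10 genes of each interaction by p, and further list members with their values. Members and lists were chosen with earlier results of these data known. Columns of other samples numbered 0. Of 813 list symbols, 647 had a RefSeq promoter. Results on a few genes are not reported here.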

Additional observations from a re-analysis of the deposited data

Results flagged for a closer look

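The change from naive to 48 h differed between the libraries labelled KO and those labelled KI by the test of the interaction in 25 genes, of which 10 are named here by their p. The KO minus KI difference on the log2 scale was 1.58 for Mvd, 1.64 for Zfp341, 1.68 for Oas3, 2.27 for Spats2 and 1.37 for Pla2g6. It was -1.38 for Rbmx, -1.40 for Sbk1, -0.90 for Pon2, -3.88 for Uchl1 and -1.73 for Tcaim. Spats2, which had 0.901 and 0.797 CPM before stimulation and 3.71 and 6.51 CPM at 48 h in the libraries labelled KO, changed by 2.59 in KO, 2.30 in wt and 0.32 in KI. Pla2g6, a phospholipase, changed by 1.29, 1.00 and -0.09, and the kinase gene Sbk1 by -2.34, -1.81 and -0.93. Mouse line differed with genotype in all 10 and cannot be told apart from it.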

How the results depend on the processing

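Both counts of called genes fell to 1373 when the 4 libraries labelled KO were fitted alone. Leaving out 1 KO mouse or library gave 6808 to 9663 called genes, and 5004 to 6703 at least 2-fold. The difference from wt gave 0 to 2127 genes, and the difference from KI 0 to 2768. For KO against KI the count was 16 with upper-quartile scaling, 14 with library size alone, 361 with DESeq2 and 1 with the compared groups alone. Samples of 1 mouse were paired with the mouse as a replicate block, which gave 9508 called genes, 6122 at least 2-fold, 0 against wt and 83 against KI. Of the 182 called genes tracked here for the change itself, the block ended 8 calls. With upper-quartile scaling the median of cyclins and CDK inhibitors turned to -0.065, that of the Myc network to -0.06 and that of cytosolic ribosomal proteins to -0.04. Over the fits without 1 mouse or library the log2 fold change ran from -0.65 to 2.46 for Ddit3, -0.17 to 3.39 for Gm17035, -1.37 to 2.78 for Iigp1, -0.040 to 1.30 for Itgb1, -1.26 to 3.53 for Marcksl1, -0.21 to 3.38 for Ndrg1, -0.046 to 1.34 for Tfap4 and -2.88 to 4.93 for mt-Atp6. Of 528 called list members, 477 to 522 kept call and direction under scaling, filter, DESeq2 and block alternatives. Fewer did so without 1 KO mouse or library. With the 4 libraries alone, which then set the spread by themselves, 195 of 525 did. The causes of these changes were not tested. Where a mouse or library is left out, the lone library is assumed to vary like the other groups. With 2 mice a side, many small changes may have gone uncalled.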
